A study of Mus musculus with 12 samples.

Results

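The 7 sarcomeric myosin heavy chain genes Myh1, Myh2, Myh3, Myh4, Myh7, Myh7b and Myh8 were followed by RNA-seq through 2 hind limb muscles of mice kept on the ground or flown in space. They were chosen by name as the heavy chain genes of limb muscle fibers, by a rule that uses no measured value. All 7 were found among the 36008 genes of the expression table, and all 7 were among the 10481 genes that reached over 5 TPM (a transcript level scaled for transcript length and for the library) in at least 1 of 12 libraries. The gastrocnemius, an ankle extensor, and the quadriceps, a knee extensor, were taken from each of 6 female mice, 3 ground controls (M02, M03 and M08) and 3 flown mice (M11, M12 and M20), which gave 4 groups of 3 libraries. The mice were 30 weeks old at the start and spent 9 weeks in flight or on the ground, and all of them, controls too, were given repeated subcutaneous injections of phosphate-buffered saline as a control therapy. The labels name the strain as C57BL/6 and the paper as BALB/c, and no comparison rests on it. The sequenced mice were 3 of the 10 in each condition, and the muscles were dissected from the left hind limb of carcasses that had been frozen and thawed.

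Myosin is the motor of the thick filament, and its heavy chain carries the ATPase head that pulls on actin and the rod that packs into the filament. Mammals hold a family of heavy chain genes, and the chain that a fiber makes largely sets how fast it shortens and how quickly it tires. In adult mouse limb muscle, Myh7 marks slow type I fibers, whereas Myh2, Myh1 and Myh4 mark the fast type IIa, IIx and IIb fibers, in order of increasing speed. Myh3 and Myh8 encode the embryonic and perinatal chains of developing and regenerating fibers, and Myh7b encodes a slow tonic chain that is scarce in limb muscle. In muscle that is unloaded, the known direction of change runs from slower toward faster chains.

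The members lie at 3 loci of the mouse genome (GRCm38, GENCODE vM21). Myh3 (ENSMUSG00000020908, chr11:67078300-67102291), Myh2 (ENSMUSG00000033196, chr11:67171027-67197517), Myh1 (ENSMUSG00000056328, chr11:67200052-67224575), Myh4 (ENSMUSG00000057003, chr11:67238029-67260446) and Myh8 (ENSMUSG00000055775, chr11:67277124-67308634) follow each other on the forward strand of chromosome 11. With Myh13, the heavy chain of eye muscles, they make a cluster of 6 genes over 293287 bases, in which Myh2 ends 2534 bases before Myh1 starts. Myh7 (ENSMUSG00000053093, chr14:54970684-54994626, reverse strand) lies beside Myh6, the alpha cardiac chain, and Myh7b (ENSMUSG00000074652, chr2:155611212-155634307, forward strand) stands alone. Their main transcripts have 39 to 42 exons and 5808 to 5829 coding bases each.

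The fast chains are close copies, which bears on every level below, because an estimate from 50-base reads must divide the reads that match several genes. The coding sequences of Myh1 and Myh2 were 91.1% identical, those of Myh1 and Myh4 90.2%, and those of Myh4 and Myh7 77.8%. Of 4227 windows of 30 bases, 407 (9.63%) had the same letters in Myh1, Myh2, Myh4 and Myh8. The window below lies in exon 26 of Myh4 (chr11:67253208-67253237) and is shown because its letters cannot place a read among those 4 genes. Capitals mark the bases that differ from Myh4.
Myh4: aaagcagagaagcagcgctctgacctctcc
Myh1: aaagcagagaagcagcgctctgacctctcc
Myh2: aaagcagagaagcagcgctctgacctctcc
Myh8: aaagcagagaagcagcgctctgacctctcc
Myh7: aaGgTGgagaagcTgcgctctgacctGtcc
Myh3: aaGAcagagaagcagcgcAGCgacTATGcA
Myh7b: CGCgTGgaAaagcagcgAGcCgaGGCAGcG
Myh7 differed from Myh4 at 5 of these 30 bases, Myh3 at 10 and Myh7b at 15.

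Other stretches tell the chains apart. The window below, in exon 10 of Myh4 (chr11:67243457-67243486), was the one whose closest other member differed most from Myh4, and capitals again mark differences from Myh4.
Myh4: tttgcttacgtcagtcaaggtgaaatcaca
Myh1: tACgcCtTTgtcagtcaGggGgaGatcacG
Myh8: tACgcCtTTgtcagtcaGggGgaGatcacG
Myh2: tACCcAtTTgtcagCcaGggGgaGatcaGT
Myh3: tACCcGtTcAtcagCcaGggCgaaatcCTG
Myh7: tAtgcGtTcAtcTCCcaaggAgaGaCGacT
Myh7b: tACCACtTcTGcagCcaGggGgTCaCcacT
Myh1 and Myh8 each differed from Myh4 at 9 of the 30 bases and had the same letters as each other there, while Myh2 differed at 12 and Myh7b at 15.

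Over whole transcripts, the share of 31-base words that also occur in any other gene of the expression table was 39.7% for Myh1, 38.5% for Myh2, 32.5% for Myh8, 31.9% for Myh7 and 30.4% for Myh4. It was 11.2% for Myh3 and 0.293% for Myh7b. Myh1 and Myh2 shared 28.1% of their words with each other. Myh7 shared 31.7% of its words with Myh6, and 0.677% with Myh4. The values of Myh1, Myh2, Myh4 and Myh8, and those of Myh7 and Myh6, are therefore uncertain to the extent that reads from shared words were divided between them, and the size of that effect was not tested.

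**Figure D1:**
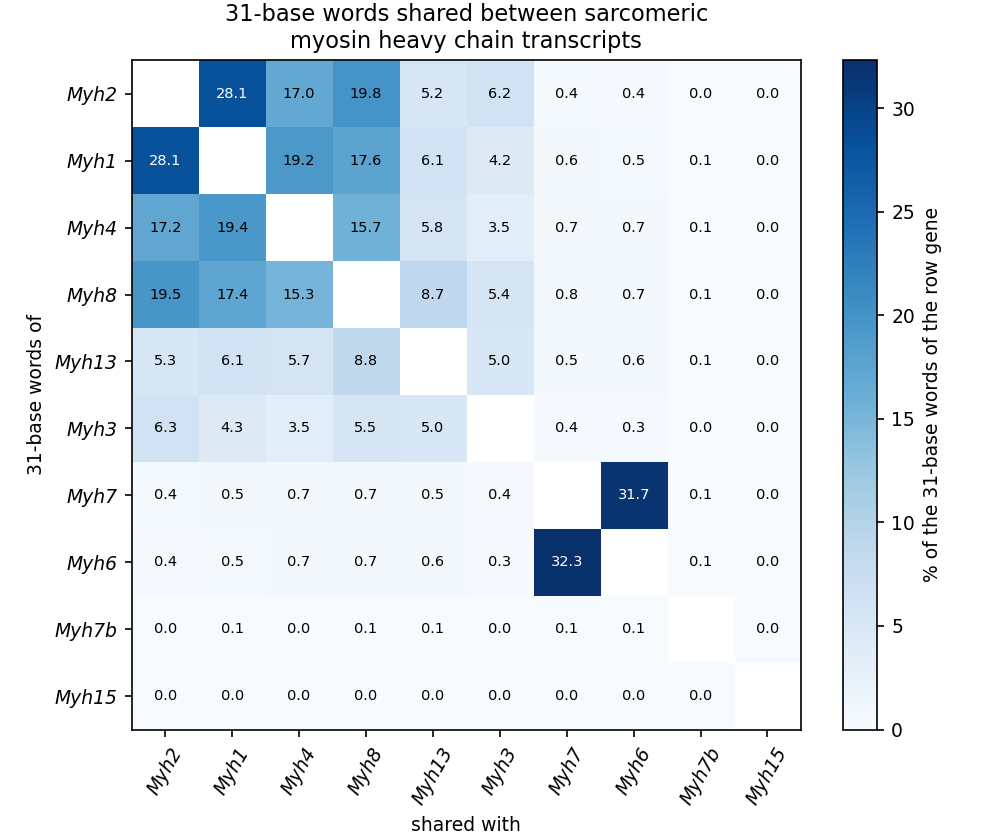
Percent of the 31-base words of each sarcomeric myosin heavy chain transcript (rows) that also occur in each other one (columns), with darker squares for larger shares. Myh2, Myh1, Myh4 and Myh8 form a block at 15.3 to 28.1%, Myh7 and Myh6 a pair at 31.7 and 32.3%, and Myh7b shares almost nothing.

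The samples were muscle by their defining markers. Acta1, Ckm, Des, Ttn and Mb, the list of muscle fiber markers, summed to 39177 to 47595 TPM in each of the 12 libraries, and 0 of the 5 were called in any comparison. The listed genes of a library summed to 923295 to 946314 TPM for the gastrocnemius and to 952229 to 966638 TPM for the quadriceps. Read depth is not kept in TPM, so no counting error was set on a value, and its precision rests on the 3 mice of a group. The ground quadriceps library of M08 listed the fewest genes above 0, with 18172 against 20291 to 21265 in the other libraries. The ground quadriceps library of M02 stood apart in slow fiber genes, and the main differences of Myh7, Myh7b and the slow fiber genes are also given without that mouse.

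Myh4, the IIb chain, was the main heavy chain in every library and ranked between the 2nd and the 11th of all genes by TPM. Together the 7 genes summed to 20060 to 31051 TPM, which was 2.17 to 3.22% of a library. Myh4 made up 82.0 to 92.0% of that sum, Myh1 4.58 to 9.81%, Myh2 2.50 to 6.72% and Myh7 0.388 to 1.37%. Myh3, Myh7b and Myh8 each stayed under 0.05%, at levels of 3.78 to 8.99 TPM. In all 4 groups the order was Myh4, Myh1, Myh2 and Myh7, and the ranges of these 4 genes did not overlap within any group.

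Among the scarce chains the order was less firm. In the ground gastrocnemius Myh7b (8.57 ± 0.488 TPM, SD, n = 3) and Myh3 (8.49 ± 0.435) overlapped and both exceeded Myh8 (7.19 ± 0.326) in every mouse. After flight in the same muscle the ranges of all 3 overlapped. In the quadriceps Myh8 was the highest of the 3, at 8.07 ± 0.484 TPM on the ground and 8.13 ± 0.788 after flight. Its range there overlapped that of Myh3 on the ground but neither gene's after flight.

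**Figure D2:**
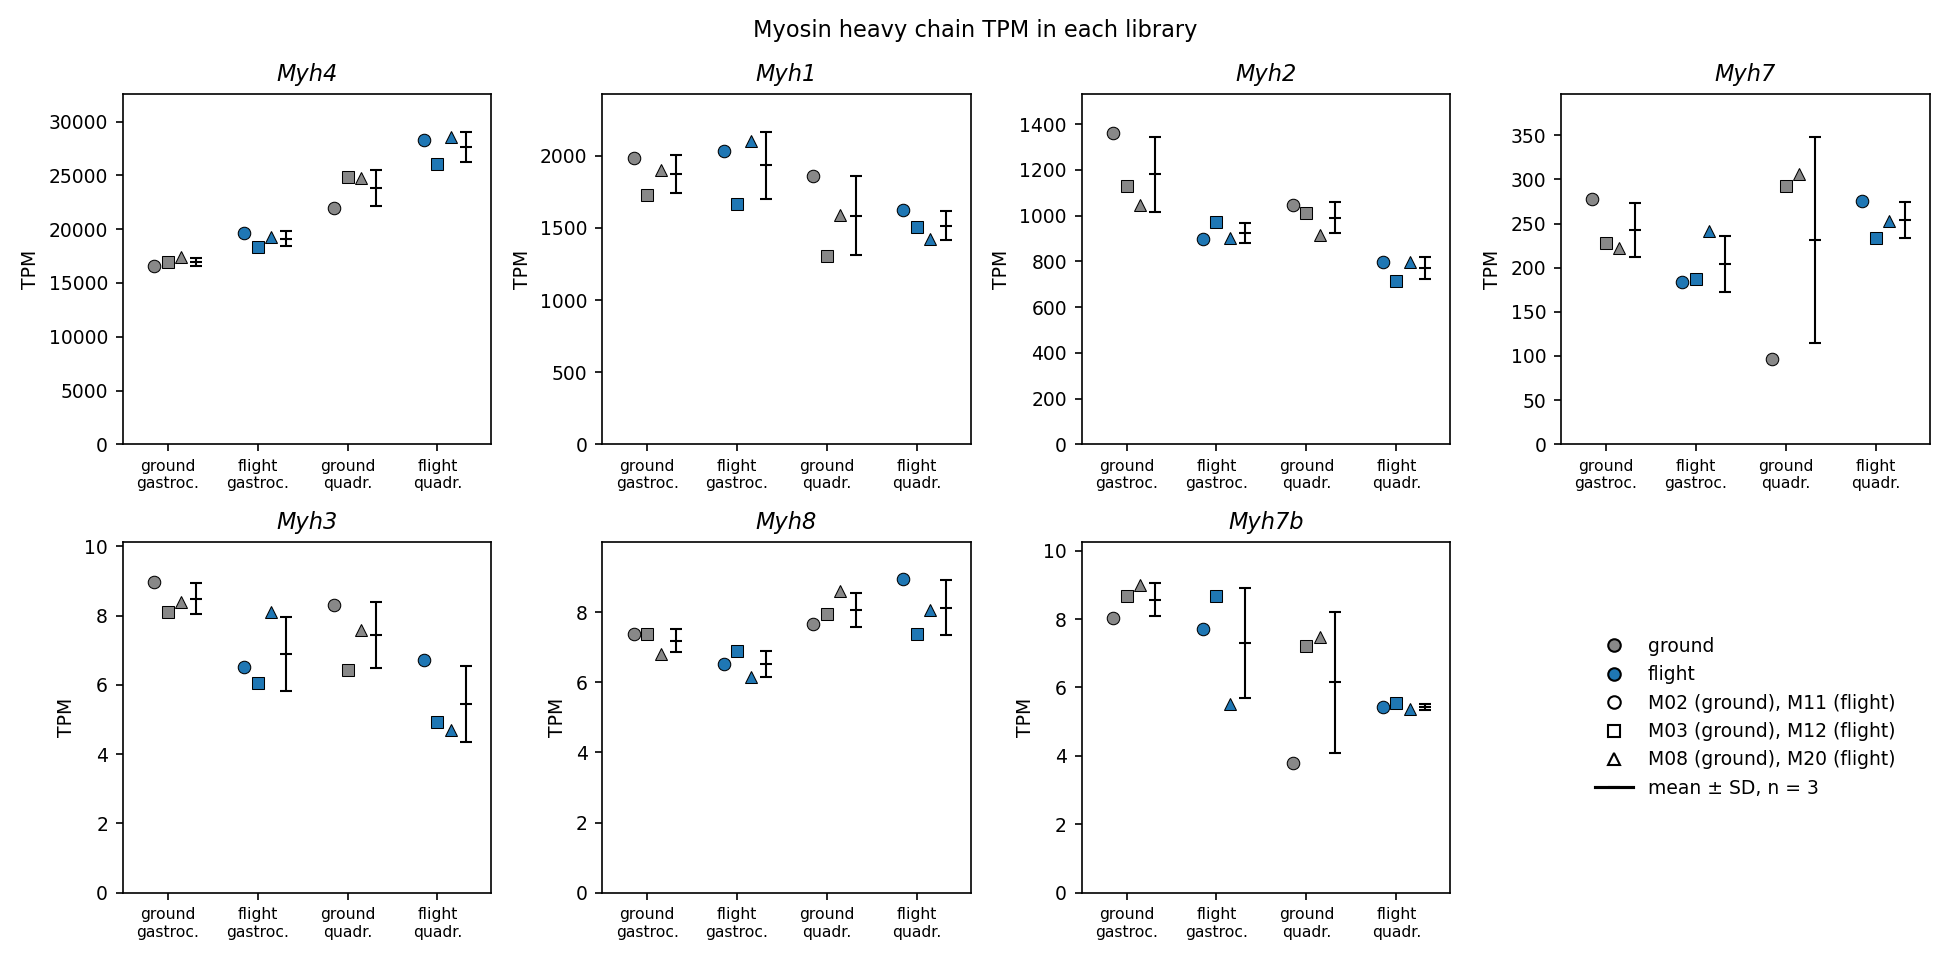
TPM of each myosin heavy chain gene (vertical axis, linear, from 0) in the 12 libraries by group, with grey points for ground and blue for flight, a marker shape per mouse, and bars at the mean ± SD of 3 mice. Flight points of Myh4 lie above, and those of Myh2 below, the ground points of the same muscle, and 1 ground quadriceps point of Myh7 lies far below the others at 96.8 TPM.

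The first question was whether the chain makeup of each muscle differed after flight. In the gastrocnemius the IIb chain Myh4 was at 16601, 16950 and 17369 TPM in ground mice M02, M03 and M08, and at 19688, 18370 and 19286 TPM in flown mice M11, M12 and M20. All 3 flown mice were above all 3 ground mice. On the log2(TPM + 1) scale, which understates changes of low genes, the difference was 0.17 (95% confidence interval 0.02 to 0.32, limma adjusted p = 0.278). The IIa chain Myh2 showed the opposite order, with 1362, 1129 and 1048 TPM on the ground and 896, 974 and 901 TPM after flight. Its groups did not overlap either, and its log2 difference was -0.34 (-0.59 to -0.10, limma adjusted p = 0.218). Myh1, the IIx chain between them in speed, was at 1986, 1730 and 1901 TPM on the ground and 2036, 1667 and 2100 TPM in flight. Its groups overlapped, with a log2 difference of 0.04 (-0.20 to 0.29, limma adjusted p = 0.878).

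None of the 7 members passed the thresholds in the gastrocnemius (adjusted p under 0.05 and over 1.5-fold), where 24 of all 10481 genes (0.229%) were called, 12 higher and 12 lower. The groups did not overlap for 3 of the 7 members, against 21.0% of all genes tested. Flight was higher for Myh4 (12.5% of all genes) and lower for Myh2 and Myh3 (8.55%). An unadjusted limma p under 0.05 was reached by 2 of the 7, against 15.1% of all genes. RNA from whole muscle cannot tell fewer fibers of a type from less of its RNA per fiber.

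The quadriceps showed the same order of groups for Myh4 and Myh2. Myh4 was at 21941, 24874 and 24802 TPM on the ground and at 28317, 26024 and 28559 TPM after flight. The groups did not overlap, and the lowest ground value was that of M02. The log2 difference was 0.21 (0.01 to 0.41, limma adjusted p = 0.445). Myh2 was at 1048, 1011 and 915 TPM on the ground and at 796, 714 and 799 TPM in flight. All flown mice were below all ground mice, with a log2 difference of -0.36 (-0.55 to -0.18, limma adjusted p = 0.298). Myh1 was at 1858, 1306 and 1591 TPM on the ground and at 1621, 1507 and 1422 TPM in flight, so its flight values lay inside the ground range, and the log2 difference was -0.05 (-0.36 to 0.26, limma adjusted p = 0.909).

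Again 0 of 7 members were called, beside 3 of 10481 genes (0.0286%), 1 higher and 2 lower. Myh4 and Myh2 were the 2 members of 7 whose groups did not overlap, against 17.4% of all genes (9.24% with flight higher and 8.12% with flight lower), and the 2 with an unadjusted limma p under 0.05, against 10.8%. Over all 13 alternatives, each mouse left out in turn included, the log2 difference of Myh2 ran from -0.43 to -0.24 in the gastrocnemius and from -0.42 to -0.31 in the quadriceps. That of Myh4 ran from 0.15 to 0.20 and from 0.15 to 0.25.

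**Figure D3:**
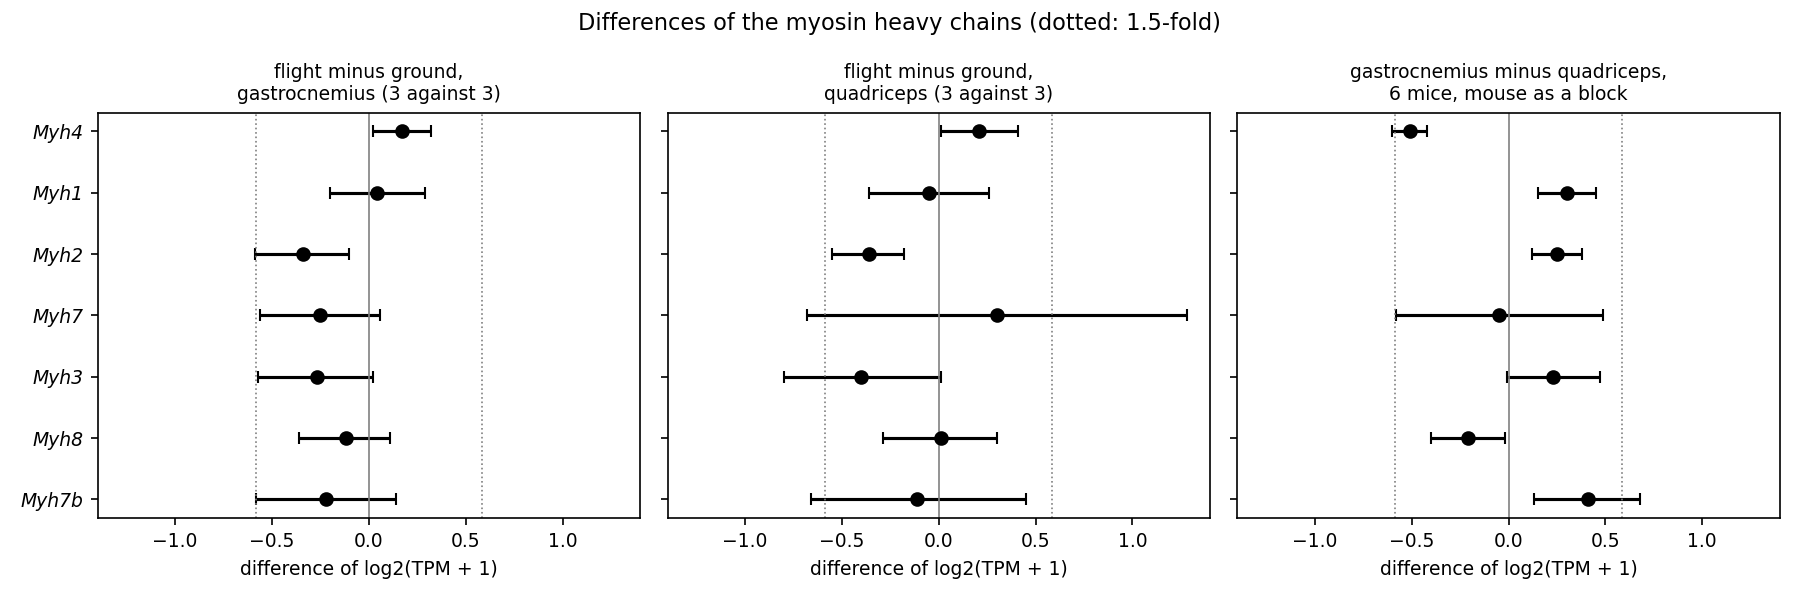
Difference of log2(TPM + 1) of each myosin heavy chain (horizontal axis) for flight minus ground in each muscle (3 against 3 mice) and for gastrocnemius minus quadriceps over 6 mice, with points at the limma estimate, bars for the 95% confidence interval and dotted lines at 1.5-fold. The intervals of Myh4 and Myh2 exclude 0 in all 3 panels, no estimate passes 1.5-fold, and Myh7 has the widest interval in the quadriceps.

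Shares of the summed TPM are free of library scaling, and they were compared for the same reason. They are bound to a common sum, so a larger share of Myh4 leaves smaller shares for the other members. In the gastrocnemius Myh4 made up 82.0, 84.5 and 84.5% of the sum in the ground mice and 86.3, 86.6 and 85.5% in the flown mice. All flight shares were above all ground shares, and the means of 83.6 ± 1.44% and 86.1 ± 0.532% (SD, n = 3) differed by 2.48 percentage points (exact permutation p = 0.10). In the quadriceps the shares were 87.9, 90.4 and 89.7% on the ground and 91.3, 91.3 and 92.0% after flight, a difference of 2.16 points (exact permutation p = 0.10). With 3 mice against 3, 0.1 is the smallest two-sided p that this test can give, so no share could pass 0.05.

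The share of Myh2 was smaller after flight in both muscles. In the gastrocnemius it was 6.72, 5.63 and 5.10% on the ground against 3.92, 4.59 and 4.0% in flight, with means of 5.82 ± 0.830% and 4.17 ± 0.365%. In the quadriceps it was 4.20, 3.68 and 3.31% against 2.56, 2.50 and 2.57%, with means of 3.73 ± 0.445% and 2.55 ± 0.0376%. Neither muscle had overlapping groups, and the differences were -1.64 and -1.18 points (exact permutation p = 0.10 each). The share of Myh1 differed by -0.528 points in the gastrocnemius (exact permutation p = 0.50) and -0.953 points in the quadriceps (exact permutation p = 0.400), with overlapping groups. In all 14 such tests were made, for 7 genes in 2 muscles, without adjustment.

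The ratio of IIb to IIa transcripts put both differences in 1 number, chosen after the values were seen. Myh4 was 12.2, 15 and 16.6 times as abundant as Myh2 in the ground gastrocnemius and 22.0, 18.9 and 21.4 times as abundant after flight. In the quadriceps the ratios were 20.9, 24.6 and 27.1 on the ground and 35.6, 36.5 and 35.7 after flight, the narrowest spread of the 4 groups. On the log2 scale the differences were 0.516 and 0.577 (exact permutation p = 0.10 each), and they differed between the muscles by -0.0616 (exact permutation p = 0.70). The ratio of Myh1 to Myh2 was 1.46 to 1.81 in the ground gastrocnemius and 1.71 to 2.33 after flight, with overlapping groups. In the quadriceps it was 1.29 to 1.77 on the ground and 1.78 to 2.11 after flight, just without overlap.

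The summed TPM of the 7 genes was 20251, 20060 and 20564 in the ground gastrocnemius and 22824, 21220 and 22548 after flight. The quadriceps sums were 24963, 27506 and 27638 on the ground and 31030, 28496 and 31051 after flight. The flown mice had the higher sums in both muscles, by 1906 and 3490 TPM on average, and the mean level of Myh4 alone differed by more than that in each muscle.

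When both muscles of a mouse were averaged, a comparison added after the values were seen, Myh2 differed in the flown mice by -0.35 on the log2 scale (-0.53 to -0.18, limma adjusted p = 0.0800). Myh4 differed by 0.19 (limma adjusted p = 0.136) and Myh3 by -0.34 (limma adjusted p = 0.177), and the adjusted p of the other members was 0.608 or more. None of the 7 was called, beside 13 of 10481 genes (0.124%), and none had an adjusted p under 0.05 (0.162% of all genes). An unadjusted p under 0.05 was reached by 3 of the 7, against 18.0% of all genes. Myh2 was among the 2.94% of all genes whose flight values lay below the ground values in both muscles, and Myh4 among the 3.06% with flight values above them in both. The flight effect was not shown to differ between the muscles for any member (limma interaction, adjusted p of 0.976 or more), and 0 of 10481 genes (0%) passed that test, with 5.09% at an unadjusted p under 0.05. The interaction estimate was 0.02 for Myh2, -0.04 for Myh4 and -0.55 for Myh7 (-1.62 to 0.51).

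Myh7, the slow type I chain, was at 278, 228 and 222 TPM in the ground gastrocnemius and at 184, 187 and 241 TPM after flight. The groups overlapped through M20, the highest of the flown mice, and the log2 difference was -0.25 (limma adjusted p = 0.406), or -0.15 without M02. As a share of the sum, however, Myh7 made up 1.37, 1.13 and 1.08% on the ground and 0.804, 0.882 and 1.07% after flight, so that the highest flight share lay just under the lowest ground share (difference -0.278 points, exact permutation p = 0.10). The summed TPM, mostly Myh4, was larger in all flown mice, so this order of shares is not separate from the difference of Myh4. In the quadriceps Myh7 was at 96.8, 292 and 306 TPM on the ground and at 275, 234 and 253 TPM after flight. M02 was far below all other libraries, and the log2 difference of 0.30 (-0.68 to 1.28, limma adjusted p = 0.822) became -0.24 without that mouse.

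Of the 12 listed slow fiber genes, 8 were lowest of the ground quadriceps in the same library, 2 (Pln and Mybpc1) were highest and 2 (Myl6b and Casq2) lay between the other mice. In the ground quadriceps of M02 the slow troponin Tnnt1 was at 147 TPM against 409 and 404 in M03 and M08, and the slow tropomyosin Tpm3 was at 121 against 299 and 329. The 12 slow fiber genes summed to 1671 TPM in that library and to 2869 and 2892 TPM in the other ground quadriceps. The 5 adipocyte markers had their highest sum of the 12 libraries there, 209 TPM, and the part of either in the Myh7 value was not tested. In the gastrocnemius of the same mouse the slow sum was 3146 TPM, the highest of the 12.

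Myh7 was set beside those 12 slow fiber genes, namely Myl2, Myl3, Myl6b, Tnnt1, Tnni1, Tnnc1, Tpm3, Atp2a2, Casq2, Myoz2, Pln and Mybpc1. In the gastrocnemius 3 of the 12 were called lower after flight and 0 higher, beside 0.229% of all genes called. By estimate, 10 of the 12 were lower and 2 higher. The slow regulatory light chain Myl2 fell from 566, 432 and 438 TPM to 213, 158 and 198 TPM (log2 change -1.33, limma adjusted p = 0.0361). The slow essential light chain Myl3 (-0.90) and the slow calcium pump Atp2a2 (-0.88) fell at the same adjusted p. Over 13 alternatives the estimates stayed between -1.42 and -1.20 for Myl2, -0.95 and -0.82 for Myl3 and -0.92 and -0.80 for Atp2a2, but the calls were kept under 4, 5 and 4 of them only. Leaving out M02, M03, M12 or M20 ended all 3 calls, with adjusted p of up to 0.204, 0.163 and 0.192 over the alternatives. The list's median log2 difference was -0.44, against 0.02 over all genes tested. The light chains that pair with the slow heavy chain thus had larger differences than Myh7 itself (-0.25), and the difference between them was not tested.

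Without M02, 0 of the 12 were called in the gastrocnemius, with a median of -0.35. In the quadriceps 0 of the 12 slow fiber genes were called. Their median log2 difference was -0.23 against 0.01 over all genes, and the largest were Myl2 (-0.64, limma adjusted p = 0.566), Myl3 (-0.52) and Myoz2 (-0.50), a Z-disc protein of slow fibers. Without M02 the median was -0.44, and Myl2 differed by -1.07 (limma adjusted p = 0.519), Tnni1 by -0.78, Myl3 by -0.89 and Atp2a2 by -0.50, with 0 of 12 called. Averaged over both muscles, 0 of 12 were called, and the largest differences were those of Myl2 (-0.99, limma adjusted p = 0.0621), Myl3 (-0.71, 0.0836) and Myoz2 (-0.63, 0.0504).

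**Figure D4:**
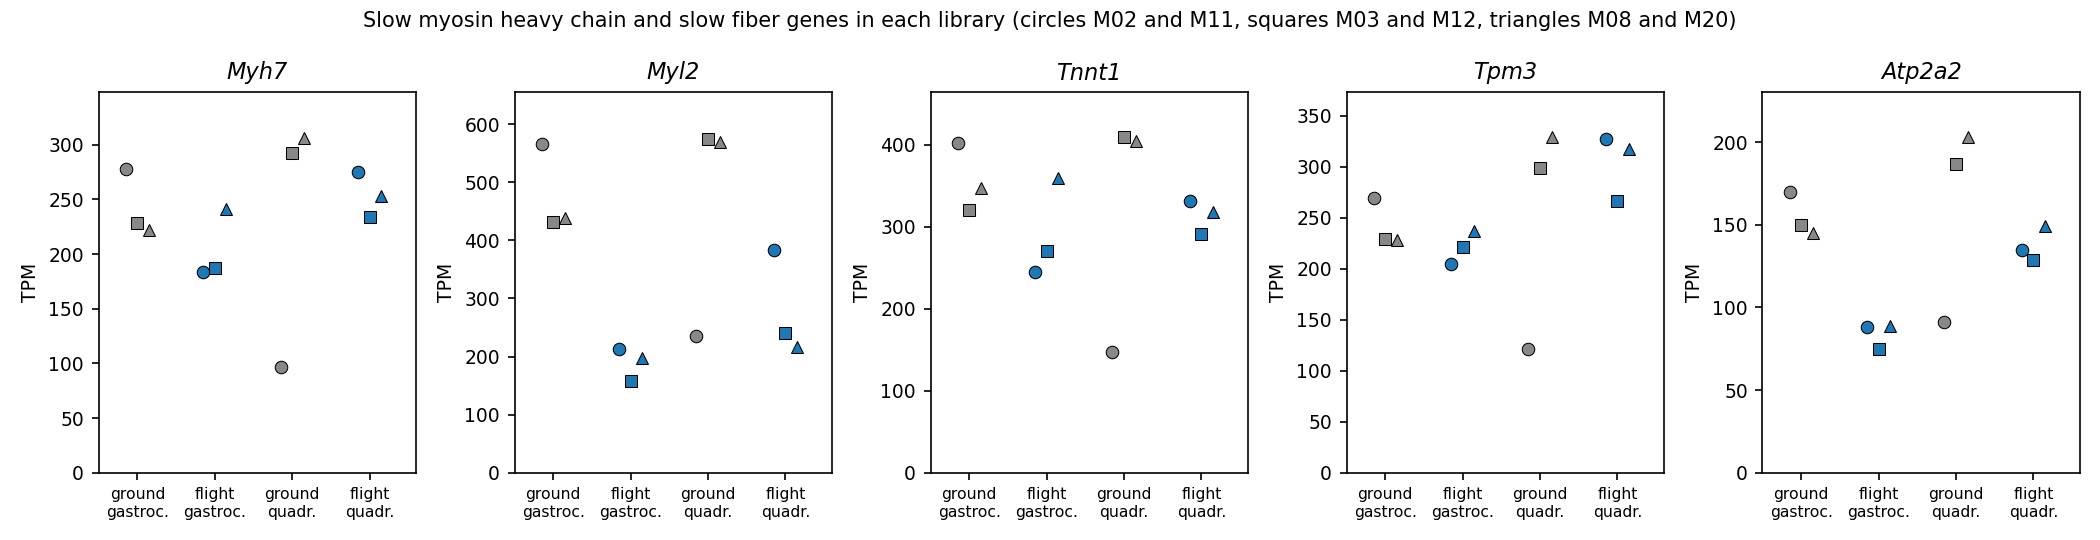
TPM (vertical axis, linear, from 0) of the slow heavy chain Myh7 and of Myl2, Tnnt1, Tpm3 and Atp2a2 in the 12 libraries, grey for ground and blue for flight, with a marker shape per mouse. The circle of M02 is the lowest ground quadriceps point in all 5 panels, and in the gastrocnemius the flight points of Myl2 and Atp2a2 lie below all ground points.

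Myh6, the alpha cardiac chain and the neighbour of Myh7, was listed at 42.2 to 109 TPM. Its level followed that of Myh7 and was 29.8 to 44.6% of it in every library. In the ground quadriceps of M02 it was at 42.2 TPM against 99.7 and 109 in the other ground mice. Since the pair shares 31.7% of the words of Myh7, reads of either gene cannot be told apart in those stretches. The eye muscle chain Myh13 stayed at 2.06 to 3.06 TPM and Myh15 under 0.2 TPM, so neither entered the tests, and Myh6 differed after flight by -0.29 (limma adjusted p = 0.371) and 0.05 (0.968).

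Myh3, the embryonic chain, was at 8.97, 8.11 and 8.39 TPM in the ground gastrocnemius and at 6.52, 6.04 and 8.09 TPM after flight. The highest flown mouse (8.09) lay just under the lowest ground mouse (8.11), and the log2 difference was -0.27 (limma adjusted p = 0.354). In the quadriceps it was at 8.31, 6.43 and 7.59 TPM and at 6.71, 4.94 and 4.69 TPM, with overlap through M03 and M11 (-0.40, limma adjusted p = 0.473). Within each muscle its share of the sum was smaller in every flown mouse than in every ground mouse. The differences were -0.0109 points in the gastrocnemius and -0.0100 points in the quadriceps (exact permutation p = 0.10 each). The summed TPM, mostly Myh4, was larger in all flown mice, so the shares of Myh3 are not separate from the difference of Myh4.

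Myh8, the perinatal chain, showed no such order in TPM. It was at 7.37, 7.38 and 6.81 TPM in the ground gastrocnemius and 6.52, 6.88 and 6.14 TPM after flight (log2 difference -0.12, limma adjusted p = 0.596). In the quadriceps it was at 7.67, 7.94 and 8.61 TPM and at 8.95, 7.37 and 8.07 TPM, with full overlap (0.01, limma adjusted p = 0.989, and -0.00 after rescaling of the libraries). The share of Myh8 was smaller after flight without overlap in both muscles, with differences of -0.00604 and -0.00336 points (exact permutation p = 0.10 each), while the summed TPM was larger.

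Other genes of developing or denervated fibers were set beside both chains. Of 11 such genes, 6 passed the filter on low values and 0 were called after flight in either muscle. The largest differences in the gastrocnemius were those of Actc1, the cardiac actin of developing muscle (-0.55, limma adjusted p = 0.359), Gadd45a (0.35) and Myod1 (0.22). In the quadriceps they were Myog (0.82, limma adjusted p = 0.360), a transcription factor of muscle differentiation and denervation, Gadd45a (0.32) and Tnnt2 (0.27).

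Myh7b, the slow tonic chain, was at 8.03, 8.68 and 8.99 TPM in the ground gastrocnemius and at 7.70, 8.68 and 5.53 TPM after flight (log2 difference -0.22, limma adjusted p = 0.533). The quadriceps held 3.78, 7.22 and 7.47 TPM on the ground and 5.42, 5.54 and 5.36 TPM after flight (-0.11, limma adjusted p = 0.896). The groups overlapped in both muscles. The value of 3.78 TPM, the lowest of the 12, again belonged to M02. Without that mouse the difference was -0.26 in the gastrocnemius and -0.37 in the quadriceps.

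Myh7, Myh6 and Myh7b each hold a microRNA in an intron, and these are known to be made with their hosts and to act on slow fiber genes. Their sequences (RefSeq, GRCm38.p6) are shown because the scarce Myh7b and the more abundant Myh7 carry nearly the same seed. Capitals mark the seed, bases 2 to 8.
mmu-miR-208b-3p: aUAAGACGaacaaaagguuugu
mmu-miR-208a-3p: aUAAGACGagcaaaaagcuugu
mmu-miR-499-5p: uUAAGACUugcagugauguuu
The first lies in intron 31 of Myh7 (chr14:54975710-54975731, reverse strand), the second in intron 29 of Myh6 (chr14:54949072-54949093, reverse strand) and the third in intron 19 of Myh7b (chr2:155622893-155622913, forward strand). The first and second have the same seed, and the third shares its first 6 bases. Levels of the microRNAs were not analysed here.

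The second question was how the muscles differ, which each mouse answers with its own pair. Myh4 was lower in the gastrocnemius of all 6 mice, for instance 16601 against 21941 TPM in M02 and 18370 against 26024 TPM in M12. Over the 6 mice the log2 difference was -0.51 (-0.60 to -0.42, limma adjusted p = 4.10e-04), a fold of 0.702 that stays under the 1.5-fold bound. It was -0.49 on the ground and -0.53 after flight (limma adjusted p = 0.00588 and 0.00397).

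The other adult fast chains were higher in the gastrocnemius. Myh1 was higher there in all 6 mice, from 1986 against 1858 TPM in M02 to 2100 against 1422 TPM in M20 (log2 difference 0.30, limma adjusted p = 0.0112). Myh2 was higher in all 6 as well (0.25, limma adjusted p = 0.0121), and so was Myh7b (0.41, limma adjusted p = 0.0377). Myh3 was higher in 5 of 6 (0.23, limma adjusted p = 0.128), and Myh8 was lower in 6 of 6 (-0.21, limma adjusted p = 0.0867).

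Thus 4 of 7 members had an adjusted p under 0.05 between the muscles, against 29.0% of all genes, 5 of 7 had an unadjusted p under 0.05, against 41.3%, and 0 of 7 were also over 1.5-fold, against 3.33%. In all 6 mice alike, 3 of the 7 were higher in the gastrocnemius (4.96% of all genes) and 2 lower (26.0%). Over 12 alternatives the adjusted p ran from 4.85e-05 to 0.0396 for Myh4, from 0.00706 to 0.0675 for Myh1, from 0.00557 to 0.0550 for Myh2 and from 0.0225 to 0.123 for Myh7b. Taken separately, 0 of 7 members were called on the ground (3.20% of all genes) and 0 of 7 after flight (3.34%).

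The scale matters for these levels. The median log2 difference of all genes between the muscles was -0.12 on the ground, -0.11 after flight and -0.11 over the 6 mice. Genes were called 119 higher and 230 lower in the gastrocnemius over the 6 mice as deposited, and 195 higher and 107 lower after median-ratio rescaling. On the ground the split went from 102 and 233 to 144 and 81, and after flight from 105 and 245 to 141 and 99. After rescaling, Myh4 differed by -0.39, Myh1 by 0.42, Myh2 by 0.38 and Myh7b by 0.51 over the 6 mice, so these 4 kept their directions.

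Shares do not depend on that scale. Over the 6 mice Myh4 made up 84.9% of the gastrocnemius sum and 90.4% of the quadriceps sum, a difference of -5.55 points in the same direction in 6 of 6 mice (exact sign-flip permutation p = 0.0312, the smallest that 6 mice allow). Myh1 accounted for 3.45 points of the opposite sign and Myh2 for 1.86 points (exact permutation p = 0.0312 each, 6 of 6 mice). The shares of Myh3 (0.0134 points) and Myh7b (0.0172 points) were also larger in the gastrocnemius of all 6 mice, at the same p, and that of Myh8 in 5 of 6 (exact permutation p = 0.0625). In TPM, however, Myh8 was lower in the gastrocnemius of all 6 mice. The mean summed TPM, mostly Myh4, was 21245 there and 28447 in the quadriceps. The shares of these scarce chains are therefore not separate from the difference of Myh4. In all 7 such share tests were made between the muscles, without adjustment. The muscle difference of the Myh4 share was -5.71 points on the ground and -5.40 points after flight (difference 0.312 points, exact permutation p = 0.600).

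**Figure D5:**
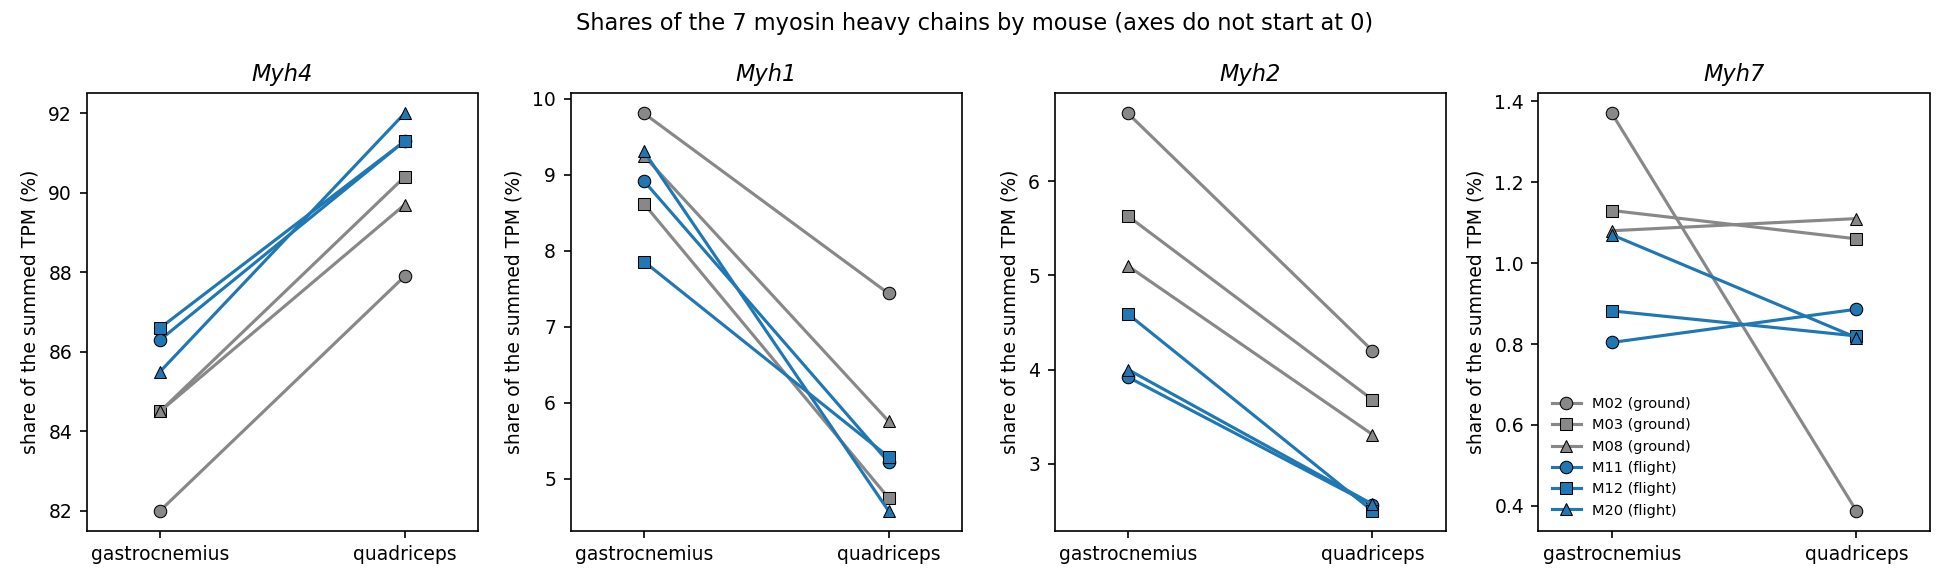
Share of the summed TPM of the 7 genes (vertical axes in percent, not starting at 0) in the gastrocnemius and quadriceps of each mouse, with a line per mouse, grey for ground and blue for flight. Lines of Myh4 all run upward and those of Myh1 and Myh2 all downward, while the line of M02 for Myh7 falls from 1.37 to 0.388%.

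Myh7 alone of the adult chains gave no common direction. It was lower in the gastrocnemius in 5 of 6 mice, with 228 against 292 TPM in M03 and 184 against 275 TPM in M11. In M02 it was 278 against 96.8 TPM. The log2 difference over the 6 mice was -0.05 (limma adjusted p = 0.902) and 0.08 after rescaling, whereas without M02 it was -0.37 (limma adjusted p = 0.0216, with 0.0216 to 0.970 over the 12 alternatives). Its share was larger in the gastrocnemius in 4 of 6 mice (0.211 points, exact permutation p = 0.250), and the mean difference was 0.0557 points without M02.

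Fast fiber genes accompanied Myh4 between the muscles. Of the 12 listed (Myl1, Mylpf, Tnnt3, Tnni2, Tnnc2, Tpm1, Atp2a1, Casq1, Actn3, Pvalb, Myoz1 and Mybpc2), all 12 had lower estimates in the gastrocnemius over the 6 mice, 11 with an adjusted p under 0.05, and 2 were called. Of all 10481 genes tested, 7189 had lower estimates there, 29.0% had an adjusted p under 0.05 in either direction, and 3.33% were called. The called genes of the list were Mylpf, the fast regulatory light chain (log2 change -0.88, limma adjusted p = 1.56e-04), and the calcium buffer Pvalb (-0.64, limma adjusted p = 5.80e-04), and Tnni2 was next (-0.52). The list's median was -0.49 against -0.11 over all genes, and the estimate nearest to the latter was that of Myoz1 (-0.12). Mylpf was at 8235 to 9604 TPM in the 6 gastrocnemius and at 15080 to 19025 TPM in the 6 quadriceps libraries, without overlap. Mylpf was called under 12 of 12 alternatives and Pvalb under 11, the exception being rescaling. Both genes were also called on the ground and after flight taken separately. Those calls held under 11 and 12 of 12 alternatives for Mylpf, but under 9 and 8 for Pvalb. After flight 0 of the 12 fast fiber genes were called in either muscle, with gastrocnemius and quadriceps medians of 0.08 and 0.10, and the largest difference in each was 0.23 for Tpm1.

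The slow fiber genes, in contrast, had no called member between the muscles, and their median was -0.05 over the 6 mice. Mybpc1, slow myosin binding protein C, was higher in the gastrocnemius by 0.39 (limma adjusted p = 0.00615), under 1.5-fold, followed by Atp2a2 (-0.34) and Tnni1 (0.31). Without M02 the median was -0.20, Mybpc1 differed by 0.37, Atp2a2 by -0.55 (limma adjusted p = 0.00438), Myl2 by -0.46 and Tnni1 by 0.09, and 0 of 12 were called.

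Proteins that bind, assemble or turn over the thick filament were listed as 12 partners, and all 12 were tested. After flight 0 of 12 were called in either muscle. The largest differences were Myom3, an M-band protein (-0.81, limma adjusted p = 0.149), Hsp90aa1 (0.43) and Mybpc1 (-0.31) in the gastrocnemius, and Myom3 (-0.55), Mybph (0.45) and the ubiquitin ligase Trim63 (0.45) in the quadriceps. Between the muscles over the 6 mice, 9 of 12 had an adjusted p under 0.05, against 29.0% of all genes, and 0 were called. Mybph, a myosin binding protein H, was lower in the gastrocnemius after flight (log2 change -0.78, limma adjusted p = 0.0108). It was called there, but not with no filter on low values or without M12 or M20. Over the 6 mice Mybph differed by -0.58, with Trim55 (-0.47) and Myom2 (-0.46) next.

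Of 22 regulators known to act on heavy chain genes, 20 were tested and 0 were called in any comparison. After flight the largest differences in the gastrocnemius were Vgll2 (-0.45, limma adjusted p = 0.227), a cofactor of slow fibers, Ppargc1a (-0.39) and Hdac4 (0.33). In the quadriceps they were Hdac4 (0.41, limma adjusted p = 0.567), Ppargc1a (0.36) and Sox6 (0.25), a repressor of slow genes. Ppargc1a was at 53.2 TPM in the ground gastrocnemius of M02 against 25.8 and 16.1 in M03 and M08, and its difference was 0.05 without M02. Hdac4 was highest in M12 after flight. It was at 62.7 TPM there against 35.0 and 36.7 in the gastrocnemius of M11 and M20, and at 59.3 against 29.2 and 36.5 in the quadriceps. Between the muscles 8 of the 20 had an adjusted p under 0.05, against 29.0% of all genes. Tbx15, a transcription factor of fast fibers, was at 55.8 to 64.6 TPM in the gastrocnemius and 80.8 to 93.9 TPM in the quadriceps (log2 difference -0.54, limma adjusted p = 9.92e-04), followed by Vgll2 (0.39) and the calcineurin subunit Ppp3ca (-0.37). The all-gene median on this scale was -0.11.

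Some markers of other cells differed between the muscles too. Mbp and Prx, myelin genes of Schwann cells, were higher in the gastrocnemius over the 6 mice (log2 change 1.92 and 1.52, limma adjusted p = 2.52e-04 and 1.56e-04), and both were called under 12 of 12 alternatives. All 5 adipocyte markers had lower estimates in the gastrocnemius over the 6 mice, and 2 were called, against 3.33% of all genes. These were Retn (-0.92, called under 11 of 12 alternatives) and Adipoq (-0.64, under 2 of 12). On the ground all 5 estimates were lower and 3 were called (Retn -1.43, Adipoq -1.22 and Cidec -1.05), against 3.20% of all genes. The median of the list there was -1.05, against -0.12 over all genes. Without M02 0 of 5 were called there, and leaving out M03 or M08 or using no filter also ended these 3 calls. After flight 0 of 5 were called between the muscles, with a median of -0.05. In the ground quadriceps the adipocyte sum was 89.3 to 209 TPM, against 45.9 to 77.4 TPM after flight, where 0 of 5 passed and the median was -1.09. Of the 2 macrophage genes that passed the filter, Cd163 was lower in the gastrocnemius (-0.68, limma adjusted p = 0.00497), and the other had a higher estimate there. Cd163 was not called after rescaling or with a pseudocount of 5. The markers of blood, tendon, smooth muscle and endothelium had 0 called genes in any comparison. The part of these cells in the heavy chain values was not tested.

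The splicing tables list junction reads for skipped and mutually exclusive exons. Myh4 held the only event of the 7 genes, 1 of 2423 events listed for the gastrocnemius and 1 of 2416 for the quadriceps. It pairs exon 6 (chr11:67242261-67242375, 115 bases) with exon 7 (chr11:67242785-67242877, 93 bases) as mutually exclusive, although both exons are in 2 of 2 annotated Myh4 transcripts. Both exons are coding and lie in the part of the gene for the motor head. The annotated junctions from exon 5 to 6, exon 6 to 7 and exon 7 to 8 are shown because a transcript with both exons holds all 3. Capitals mark the downstream exon.
exon 5 to 6: gtccatcctgattacTGGAGAATCCGGGGC
exon 6 to 7: tctggcaaaatgcagGGGACCCTTGAAGAT
exon 7 to 8: aactcttctcgatttGGTAAATTCATCAGA

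Junction reads counted for this event were many, between 2982 and 9728 per form and sample. The share of these reads counted for exon 6 (listed as percent spliced in) was 38.5, 35.7 and 39.3% in the ground gastrocnemius and 35.9, 33.5 and 37.2% after flight. A transcript with both exons can give reads to both forms, so the shares do not show how much Myh4 lacks an exon. That amount was not tested. The quadriceps shares were 33.2, 38.2 and 38.4% on the ground and 42.0, 37.4 and 32.1% after flight. The tables give no sample names, and which group comes first was read from the order in which the table names its groups. Groups overlapped in both muscles, and the log2 ratio of the forms differed by -0.14 (-0.40 to 0.12, limma adjusted p = 0.756) and 0.03 (-0.33 to 0.40, limma adjusted p = 0.966). Over all kept events 8 of 2118 (0.378%) passed for the gastrocnemius, with 201 at an unadjusted limma p under 0.05, and 0 of 2062 (0%) for the quadriceps, with 160. The 8 became 12 with 1 added to each read count, and 1 in 5 of the 6 fits that left out a sample.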

How the data were processed

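The authors sequenced poly(A) RNA as stranded, single-end, 50-base libraries, estimated transcript abundance with kallisto (0.46.0 in the submitters' processing notes) and summed it per gene with tximport, and the deposited unit is TPM. For splicing, the authors aligned reads to mm10 with STAR (2.7.1a in the same notes) and deposited rMATS-turbo junction read counts per event. Columns with the authors' p-values, FDR and differences of inclusion level were not used.

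Values were analysed as log2(TPM + 1) for the 10481 genes above 5 TPM in 1 library or more, with limma 3.58.1 (lmFit, eBayes with a trend) in R 4.3.3. Benjamini-Hochberg adjustment covered all of these genes. Calls needed an adjusted p under 0.05 and a change over 1.5-fold. Comparisons of the muscles held mouse as a block, since both muscles come from the same animal by the labels, and deviations of the 2 muscles of a mouse correlated at -0.12 to 0.33. The authors used DESeq2 (1.26.0 in the notes), which needs counts and was not applied to TPM. Because TPM keeps no depth, no counting error is given.

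Shares were compared by exact permutation tests, two-sided, over mice. Event ratios were tested with limma on log2 of reads per effective length with 0.5 added, for events with over 10 junction reads on average in both groups and an inclusion level not at or under 0.05, or at or over 0.95, throughout. The limma steps were tested on simulated data. Sequences and positions are from GENCODE vM21 (GRCm38), and microRNAs from RefSeq, read with Python 3.11.15 and Biopython 1.88.

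The members, although picked by name, the gene lists and the named genes were chosen with earlier results of these data known. All members are named. Of each other list, the text names genes called in a comparison and those with the 3 largest log2 differences (cell markers only where called), and for each member the 3 genes with the highest Pearson r. Lists covered other myosin heavy chains, slow and fast fiber genes, thick filament partners, regulators of myosin genes, developing and denervated fiber genes, and markers of muscle fibers, adipocytes, blood, tendon, smooth muscle, endothelium and macrophages. A nerve list is reported in part. Averages over both muscles, the summed TPM and the ratio of Myh4 to Myh2 were added after the values were seen. Alternatives changed the pseudocount (0.1 and 5), the filter, the scaling (median ratio), the trend, the block, the mice and, for flight, a fit of all 12 libraries at once.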

Additional observations from a re-analysis of the deposited data

How the results depend on the processing

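No member was called in any comparison under any of 11 to 13 alternatives per comparison, and most kept their direction. Rescaling by median ratios gave -0.00 for Myh8 after flight in the quadriceps and 0.08 for Myh7 between the muscles. Leaving out 1 mouse turned the direction of members whose log2 difference lay near 0, and of Myh7 and Myh7b. The ranges after flight were -0.02 to 0.15 for Myh1 in the gastrocnemius and, in the quadriceps, -0.18 to 0.07 for Myh1, -0.24 (without M02) to 0.59 for Myh7, -0.37 (without M02) to 0.04 for Myh7b and -0.06 to 0.07 for Myh8. Over both muscles they were -0.10 to 0.08 for Myh1 and -0.20 (without M02) to 0.14 for Myh7. Between the muscles Myh7 ran from -0.41 (without M02) to 0.58 on the ground and from -0.37 (without M02) to 0.13 over the 6 mice. In the interaction they were -0.02 to 0.19 for Myh1, -0.07 to 0.09 for Myh2, -0.07 to 0.29 for Myh3, -0.07 to 0.00 for Myh4, -0.90 to 0.09 (without M02) for Myh7 and -0.23 to 0.11 for Myh7b.

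Counts of called genes moved more. After flight in the gastrocnemius the 24 became 4 with no filter on low values and 5 without a trend. In the quadriceps the 3 became 1 with a pseudocount of 5, 1 after rescaling and 1 without a trend. Over both muscles the 13 became 6 with a pseudocount of 0.1, 7 with a pseudocount of 5, 0 with no filter, 32 after rescaling and 0 without a trend. Between the muscles a pseudocount of 5 gave 187 on the ground, 216 after flight and 184 over the 6 mice, and no filter gave 77 on the ground and 200 after flight. The interaction gave 2 with no filter. A fit of all 12 libraries at once gave 32 in the gastrocnemius, 12 of them among the 24, and 2 in the quadriceps, 0 of them among the 3. The cause was not tested, except that no filter tests more genes.

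Leaving out 1 mouse gave 1 (without M20) to 133 (without M11) called genes in the gastrocnemius, with 6, 3, 8 and 2 without M02, M03, M08 and M12. In the quadriceps it gave 1 to 4, with 1 without M02, M11 or M12. Over both muscles it gave 0 (without M02, M12 or M20) to 134 (without M11), with 1 without M03 and 7 without M08. Between the muscles it gave 36 to 335 on the ground (93, 36 and 110 without M02, M03 and M08), 77 (without M12) to 354 after flight and 0 to 1 for the interaction (1 without M12).

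Between the muscles, 5 mice allow no exact p under 0.0625, so no share could pass with 1 mouse left out. The differences then ran from 3.2 to 3.67 points for Myh1, 1.72 to 1.95 for Myh2, 0.0119 to 0.0147 for Myh3, -5.71 to -5.38 for Myh4 and 0.0157 to 0.0192 for Myh7b. The log2 ratio of Myh4 to Myh2 ran from -0.779 to -0.727 and the summed TPM from -7701 to -6943. The quadriceps share of Myh7 after flight ran from -0.245 (without M02) to 0.115 points, and the log2 ratio of the Myh4 exon forms there from -0.11 to 0.19.

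The replicate numbers of ground and flight mice pair nothing in the labels, and their deviations correlated at -0.18 to 0.11. With the replicate block 0 genes were called in either muscle.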

Other observations

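Heavy chains of other cells were present beside those of the fibers. Myh10, a non-muscle chain, was at 10.6, 10.3 and 9.36 TPM in the ground gastrocnemius and at 6.91, 6.07 and 6.10 TPM in the ground quadriceps of the same mice (log2 change 0.59, limma adjusted p = 0.0400). It was 1 of 4 such genes called on the ground, against 3.20% of all genes. The call held under 5 of 12 alternatives. It was lost without M02, M03, M08 or M11, with a pseudocount of 5, with no filter and without a trend. Myh11, the smooth muscle chain, was higher in the gastrocnemius over the 6 mice by 0.39 (limma adjusted p = 0.00275), under 1.5-fold. Neither passed after flight, with -0.37 and 0.14 in the gastrocnemius and -0.10 and 0.13 in the quadriceps. Actc1, the cardiac actin, was called lower in the gastrocnemius on the ground (-0.85), after flight (-1.24) and over the 6 mice (-1.05, limma adjusted p = 0.00181). These calls held under 5, 9 and 12 of 12 alternatives. Rescaling and leaving out M02, M03 or M11 were among those that ended the ground call, and leaving out M12 or M20 ended that after flight.

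The genes whose levels most resembled each member over the 12 libraries are given as Pearson r of log2(TPM + 1), without a test, since libraries of a mouse and of a muscle are not independent. For Myh4 they were Tpm1 (0.98), the main tropomyosin of fast fibers, Cdc73 (0.98) and Syncrip (0.97). For Myh2 they were Mb (0.95), the oxygen carrier myoglobin, Actn2 (0.91), a Z-disc actinin, and Mgll (0.90). Myh3 also had Mb (0.90) first, then Mybpc1 and Hspb6 (0.86 each). Myh7 was most like Tnnt1 (0.96), Tpm3 (0.96) and Myh6 (0.92). Each of these genes had its lowest value of the 12 libraries in the ground quadriceps of M02. The values there were 96.8 TPM for Myh7, 147 for Tnnt1, 121 for Tpm3 and 42.2 for Myh6. How far that library sets these r values was not tested, and Myh7 shares 31.7% of its words with Myh6. The genes most like Myh1 were Dxo (0.90), Klf12 and Atp1b1 (0.86 each), for Myh8 Psmd5 (0.93), Washc3 and Angptl1 (0.91 each), and for Myh7b Sbf1 (0.85), Gm1840 (0.81) and Ackr3 (0.79). Among members, the highest r was that of Myh2 with Myh3 (0.77). Myh4 ran opposite to Myh2 (-0.76), Myh1 (-0.72) and Myh3 (-0.67), and alongside Myh8 (0.69). Myh8 shares 15.3% of its words with Myh4, and the part of divided reads in their r was not tested.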
